A study of Homo sapiens with 6 samples.

Results

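The liver X receptors and their cholesterol efflux targets were examined as a set of 10 genes in U2OS cells with and without knockdown of squalene epoxidase (SQLE). The set held 4 receptor genes (NR1H2, NR1H3, RXRA and RXRB) and 6 target genes (ABCA1, ABCG1, APOE, MYLIP, LPCAT3 and SMPDL3A). The genes were listed by name and chosen from earlier results of the same comparison, so their fold changes are given as a description and carry no p-value. All 10 were among the 19937 genes of the count table and among the 12450 genes tested. U2OS is an established human osteosarcoma line. The shSQLE cells carried a lentiviral pGIPZ construct with a short hairpin RNA against SQLE, and the shControl cells carried a scrambled hairpin in the same vector. Both were stable lines kept after puromycin selection, so both groups shared the vector and the drug, and which hairpin against SQLE was used is not given. Poly(A) RNA of 3 libraries per group was sequenced, and nothing states that the libraries came from separate cultures. The study's methods state that every result came from 3 or more independent experiments, with data of a representative one shown. Their general rule, where nothing else is specified, is 3 or more technical replicates per independent test. The p-values therefore measure only the spread between libraries, which may be technical.

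The liver X receptors are nuclear receptors that sense oxidised derivatives of cholesterol. They bind DNA as heterodimers with a retinoid X receptor, at a direct repeat of a short sequence with a spacer of 4 bases (DR4). Without ligand the heterodimer holds corepressors on its targets, and with ligand it recruits coactivators. The targets lower the sterol content of the cell: ABCA1 and ABCG1 export cholesterol, APOE accepts it outside the cell, and MYLIP removes lipoprotein receptors from the cell surface. SQLE itself catalyses the epoxidation of squalene, an early committed step of cholesterol synthesis.

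ABCA1 was the only one of 8 genes of the set with a RefSeq promoter window (GRCh38.p14, 250 bases before to 50 after the start site) in which a DR4 was found, and its sequence before the start site is shown for that reason. The search used the repeat unit NGGTNA with a spacer of 4 bases, on both strands. The stretch is chr9:104928156-104928405, read 5′ to 3′ along the gene, which is on the minus strand, with the DR4 in capitals.
ABCA1: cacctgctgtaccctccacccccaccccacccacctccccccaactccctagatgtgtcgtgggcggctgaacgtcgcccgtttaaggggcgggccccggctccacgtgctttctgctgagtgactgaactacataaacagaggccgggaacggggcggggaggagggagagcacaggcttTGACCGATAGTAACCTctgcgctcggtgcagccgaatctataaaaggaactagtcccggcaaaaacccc
The DR4 lay at chr9:104928209-104928224, from -69 to -54 relative to the start site, and on the other strand it reads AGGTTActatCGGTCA with the spacer in lower case. It matched 10 of the 12 letters of a perfect repeat of AGGTCA, with the substitutions C5T and A11C counted from 1 at the first letter of the motif. A match of 10 or more letters was present in 2.34% of all 35116 promoter windows, and a DR4 as searched was present in 0.624% of them. The best matches in the windows of the other 7 genes had 7 to 9 letters, and at least 8 letters were matched in 72.5% and at least 9 in 18.6% of all windows. ABCG1 and SMPDL3A were not matched to a window. A match of letters is a description and says nothing of binding.

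The library totals ran from 12212378 to 14393292 counts. Values per library are normalised read counts, scaled to the mean effective library size after trimmed mean of M-values (TMM) normalisation. SQLE, the targeted gene, had 1349, 1867 and 1924 normalised counts in shControl replicates 1 to 3 and 229, 204 and 219 in the shSQLE replicates (log2 fold change -2.98 ± 0.17 (SE), edgeR quasi-likelihood test, adjusted p = 0.000299). In the fit over all genes, 354 genes (2.84%) were lower in shSQLE and 46 (0.369%) higher, with an adjusted p under 0.05. shControl replicate 1 stood apart from shControl replicates 2 and 3. Its median absolute log2 difference from their mean was 0.427 over the genes tested, against 0.0911 between replicates 2 and 3. Without it 2300 genes (18.3%) were lower and 1964 (15.6%) were higher, so the results of the set and the list counts are also given without that library. Of 10 osteoblast and mesenchymal markers 5 passed the filter on low counts. The summed level of the 10 was 3306 to 3493 counts per 1000000 library counts (CPM) in shControl and 3411 to 3694 in shSQLE. Most of this sum was VIM. Its shControl mean was 38660 normalised counts, beside 6343 for SPARC, 207 for RUNX2, 164 for COL1A1 and 84.7 for SPP1. SP7 and IBSP, which mark osteoblasts, were at 0 in every library, and ALPL had at most 3 counts in any. The 5 that passed the filter had log2 fold changes of both signs. COL1A1, a collagen chain of bone, fell by 0.65 ± 0.14 on the log2 scale (SE, edgeR, adjusted p = 0.0452). RUNX2, SPARC, VIM and SPP1 stood at -0.29, -0.28, 0.17 and 0.19 without passing the test. The call for COL1A1 was kept in 1 of the 6 fits without 1 library. In RNA from bulk cultures, fewer cells that express a gene and less RNA per cell cannot be told apart.

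Of the 6 target genes, ABCA1, ABCG1 and MYLIP were lower in shSQLE and the 4 receptor genes had log2 fold changes of -0.20 to 0.11. ABCA1, ABCG1 and MYLIP were the 3 genes of the set past the threshold, beside 2.84% of all genes in that direction, and none of the set was past it in the other direction. The libraries of the groups did not overlap for 4 genes, all lower in shSQLE: ABCA1, ABCG1, MYLIP and APOE. This pattern was seen in 12.1% of all genes tested, and the opposite one, in which no gene of the set fell, in 10.0%. The median log2 fold change was -1.22 over the 6 targets and 0.01 over the 4 receptors, beside -0.01 over all 12450 genes. Without shControl replicate 1 these medians were -0.99, 0.25 and -0.01, all 4 receptors were above 0, at 0.12 to 0.29, and none of the 4 passed the threshold. Since the set was partly chosen on this contrast, these counts are not independent evidence of its direction. The plot of fold changes shows the gap between the 3 lowest targets and the receptors.

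**Figure D1:**
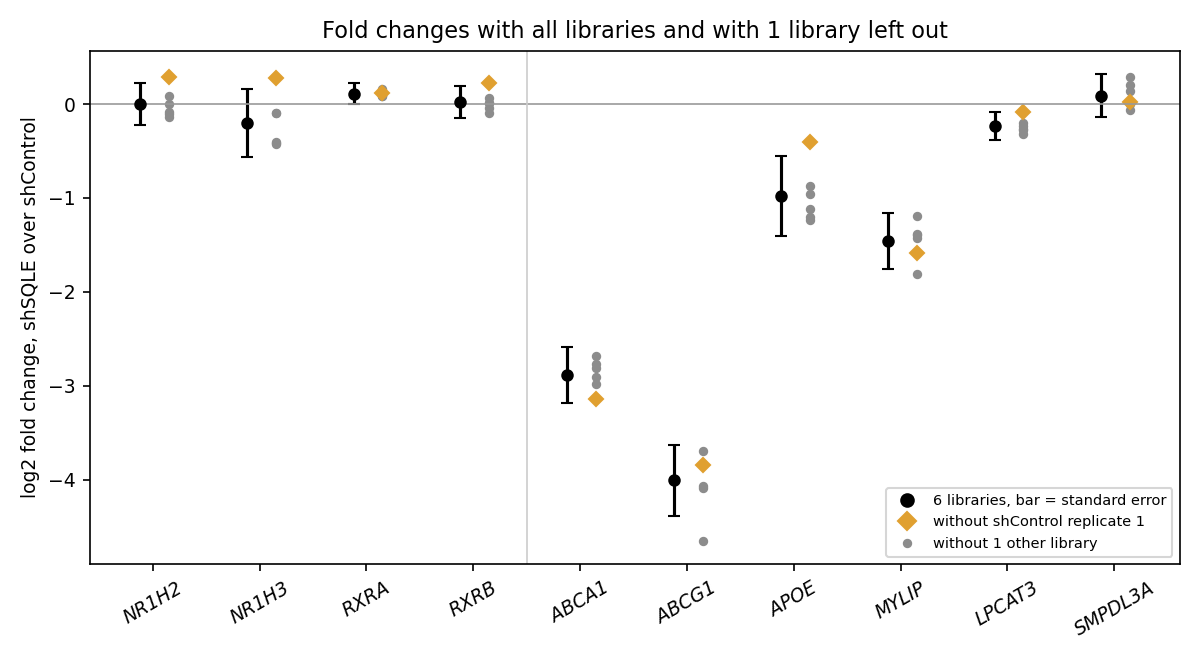
Log2 fold change (shSQLE against shControl) of the 10 genes, over all 6 libraries with standard errors (black), without shControl replicate 1 (diamonds) and without each other library (grey). ABCG1 (-4.01), ABCA1 (-2.89) and MYLIP (-1.46) lie lowest with all libraries and without shControl replicate 1, while the 4 receptors lie between -0.20 and 0.11 with all libraries.

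NR1H2 encodes LXRβ, the receptor found in most tissues. The gene lies on the plus strand of chr19:50329653-50383388 (hg38, GENCODE v44). It had 755, 470 and 433 normalised counts in shControl and 548, 611 and 492 in shSQLE. The highest and the 2 lowest libraries were all controls, so the shSQLE libraries fell inside the control range. It had a log2 fold change of 0.00 ± 0.22 (SE), and 0.29 ± 0.11 without shControl replicate 1. NR1H2 shares 1182 exonic bases with NAPSA on the opposite strand, but NAPSA averaged 1.92 normalised counts in shControl and 0.326 in shSQLE.

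NR1H3 encodes LXRα, the form that is most abundant in liver, fat and macrophages. It lies on the plus strand of chr11:47248300-47269033. Its normalised counts were 107, 48.8 and 46.1 in shControl and 49.0, 73.9 and 50.4 in shSQLE. The groups overlapped, with the highest library and the lowest both among the controls. The log2 fold change was -0.20 ± 0.36 (SE), and its sign turned to 0.28 ± 0.24 without shControl replicate 1. That library held 226% of the mean of the other two controls, a gap at least matched by 2.35% of the genes tested. ACP2, which shares 189 exonic bases with NR1H3, stood at 141% of that mean in the same library.

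RXRA and RXRB encode the heterodimer partners RXRα and RXRβ. RXRA, on the plus strand of chr9:134317098-134440585, had 499, 472 and 497 normalised counts in shControl and 536, 494 and 555 in shSQLE. The groups overlapped narrowly, since 1 shSQLE library lay among the controls and the other 2 lay above them. RXRA had a log2 fold change of 0.11 ± 0.11 (SE). RXRB, on the minus strand of chr6:33193588-33200665, had 874, 578 and 623 normalised counts in shControl and 708, 713 and 682 in shSQLE. All 3 shSQLE libraries lay between shControl replicate 1 and the other two controls. The log2 fold change of RXRB was 0.02 ± 0.17 (SE), and 0.22 ± 0.09 without shControl replicate 1. SLC39A7, whose exons share 361 bases with RXRB, was also high in that library, at 136% of the mean of the other two controls. RXRG, the remaining retinoid X receptor, did not pass the filter on low counts.

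ABCA1 encodes the transporter that loads cholesterol and phospholipid onto lipid-poor apolipoprotein A-I. The gene has 50 exons in its canonical transcript and lies on the minus strand of chr9:104781006-104928155. Its normalised counts were 202, 364 and 413 in shControl and 45.0, 36.5 and 50.4 in shSQLE. Every shSQLE library was far below every control, and shControl replicate 1 was the lowest control by a wide margin. The group means were 326.5 ± 110.5 and 43.96 ± 7.01 (SD, n = 3 each), so shSQLE held 13.5% of the control level. shSQLE and shControl differed by a log2 fold change of -2.89 ± 0.30 (SE), which ran from -3.14 to -2.68 when each library was left out in turn, and ABCA1 was past the threshold in all 12 alternative fits. The pooled raw counts were 132 in shSQLE and 999 in shControl, and scaled for library size they differed by 7.61-fold (95% exact interval 6.34 to 9.20, for counting error only). The same shControl library that was low for ABCA1 was also low for SQLE, with log2 differences of -0.93 and -0.49 from the other two controls. Of the genes tested, 7.47% were at least as far off in that library as ABCA1 and 42.9% at least as far as SQLE. The gap for SQLE was therefore a common one. Without shControl replicate 1 the log2 fold change of ABCA1 was -3.14 ± 0.15 (SE).

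ABCG1 encodes the transporter that passes cholesterol to mature high-density lipoprotein. It lies on the plus strand of chr21:42199689-42297244. The raw counts were 70, 65 and 61 in shControl and 3, 7 and 2 in shSQLE, so its level in the knockdown rests on 12 counts in all, with 2 libraries at or under the floor of 3 counts. The normalised counts were 80.8, 58.8 and 59.8 against 2.94, 6.90 and 2.06, and the highest shSQLE library was far below the lowest control. The log2 fold change was -4.01 ± 0.38 (SE), the lowest of the set, and it ran from -4.65 without shSQLE replicate 2 to -3.70. Scaled for library size, the pooled counts were 16.4-fold lower (95% exact interval 9.19 to 32.3, for counting error only). ABCG1 passed the threshold in the 11 alternative fits that tested it. A filter of at least 10 counts in every library left it out. Unlike ABCA1, ABCG1 was highest in shControl replicate 1, at 136% of the mean of the other two controls.

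MYLIP encodes the E3 ubiquitin ligase IDOL, which marks lipoprotein receptors for degradation. It lies on the plus strand of chr6:16129086-16148248. It had 122, 162 and 165 normalised counts in shControl and 32.3, 52.2 and 79.1 in shSQLE. The groups did not overlap, but the shSQLE libraries were spread over more than the distance from the highest of them to the lowest control. The means were 149.7 ± 23.7 and 54.6 ± 23.5 (SD, n = 3 each), and the log2 fold change was -1.46 ± 0.30 (SE). Of the 12 alternative fits MYLIP passed the threshold in 5, and of the 6 fits without 1 library it passed only in that without shControl replicate 1. Its value ran from -1.81 to -1.19 over those 6 fits. The call therefore depended on the libraries used, while the direction did not.

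APOE encodes apolipoprotein E, a lipid acceptor and a ligand of lipoprotein receptors. It lies on the plus strand of chr19:44905791-44909393. Its normalised counts were 72.7, 29.8 and 26.5 in shControl and 20.6, 17.7 and 25.7 in shSQLE. The highest shSQLE library was just below the lowest control, and shControl replicate 1 stood at 258% of the mean of the other two controls. The log2 fold change was -0.98 ± 0.43 (SE) and did not pass the threshold, and without that library it was -0.40 ± 0.30. No other gene of the set was as far from the other controls in that library, and 1.12% of the genes tested were as far.

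LPCAT3 and SMPDL3A complete the targets. LPCAT3, which builds polyunsaturated chains into phospholipids, lies on the minus strand of chr12:6976185-7018477 and had 816, 635 and 583 normalised counts in shControl and 570, 600 and 557 in shSQLE. Its groups overlapped, and 2 of the 3 shSQLE libraries lay under the lowest control. Its log2 fold change was -0.23 ± 0.15 (SE), and -0.08 ± 0.09 without shControl replicate 1. EMG1 shares 3096 exonic bases with LPCAT3 and was itself at 147% of the mean of the other two controls in that library. SMPDL3A, a secreted phosphodiesterase of the acid sphingomyelinase family, lies on the plus strand of chr6:122789049-122809720. It had 53.1, 73.2 and 50.03 normalised counts in shControl and 58.8, 53.2 and 77.1 in shSQLE. Its groups overlapped throughout, and its log2 fold change was 0.09 ± 0.23 (SE). The plot of counts by library shows these values for all 10 genes.

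**Figure D2:**
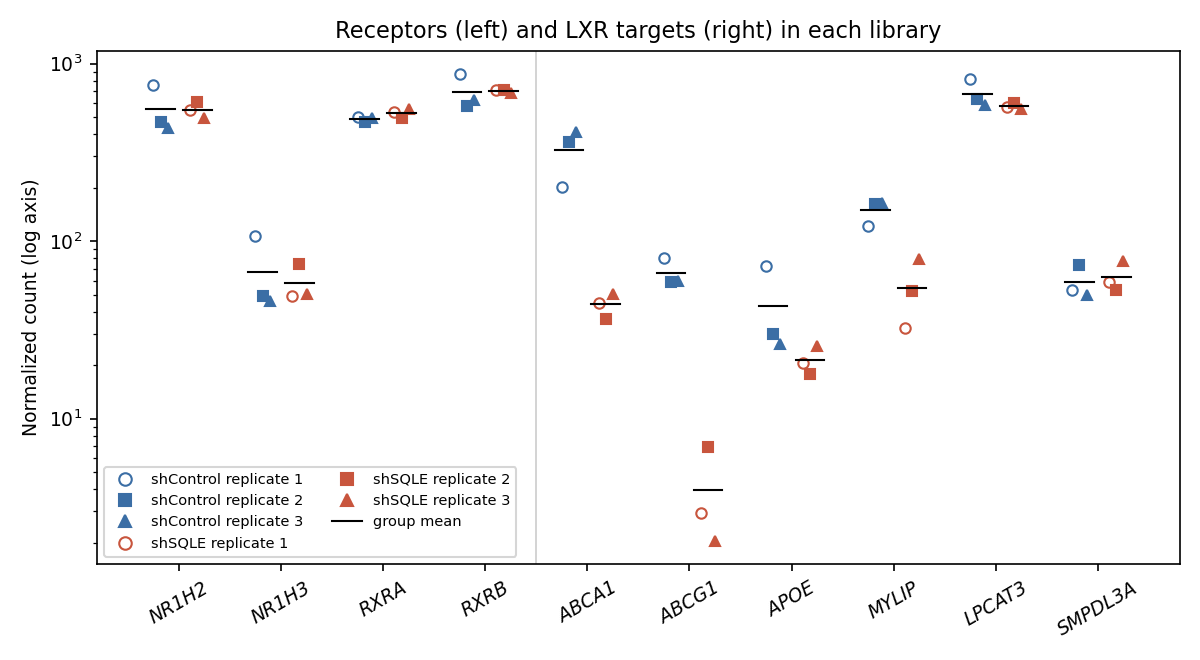
Normalised read counts (log axis) of the 10 genes in each of the 3 shControl and 3 shSQLE libraries, with a symbol for each replicate number and lines at the group means. ABCA1 (45.0, 36.5 and 50.4 in shSQLE) and ABCG1 (2.94, 6.90 and 2.06) are far below all controls, and the receptor libraries overlap.

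The genes did not deviate together in shControl replicate 1. Relative to the mean of shControl replicates 2 and 3, the log2 difference of that library was -0.93 for ABCA1, -0.41 for MYLIP and -0.18 for SMPDL3A. It was 1.31 for APOE, 1.15 for NR1H3, 0.74 for NR1H2, 0.54 for RXRB, 0.43 for ABCG1 and 0.42 for LPCAT3. RXRA was within 0.04 of the other two controls. Between replicates 2 and 3 themselves SMPDL3A differed by 0.53, and none of the other 9 genes by more than 0.18. Of the 4 genes whose groups did not overlap, ABCA1 and MYLIP had their lowest control in this library and ABCG1 and APOE their highest. What sets the library apart was not tested.

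**Figure D3:**
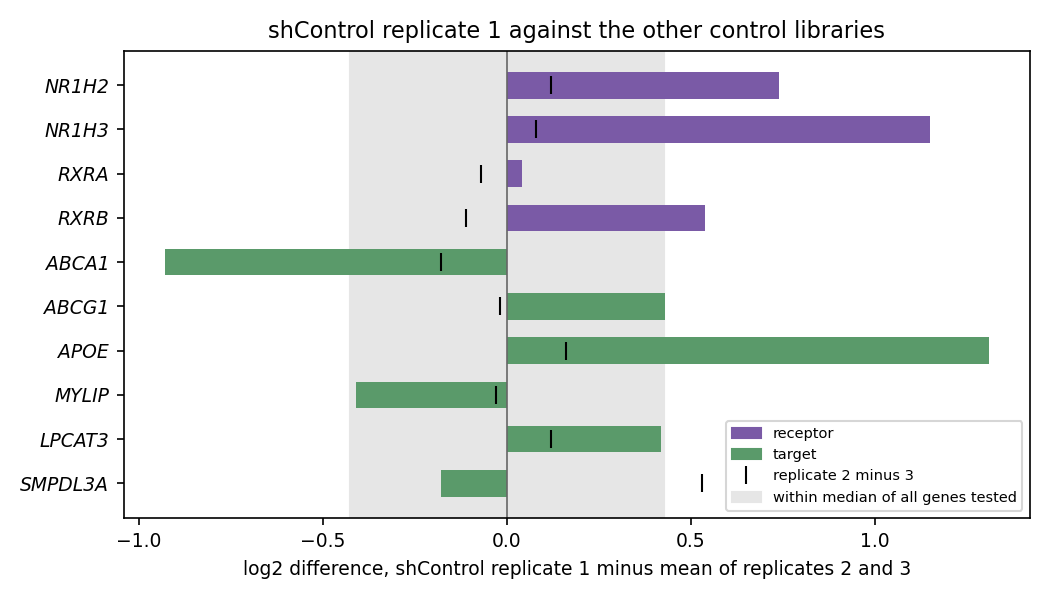
Log2 difference of shControl replicate 1 from the mean of shControl replicates 2 and 3 for the 10 genes (bars), with replicate 2 minus replicate 3 as a tick and the median absolute difference over all genes tested (0.427) shaded. APOE (1.31) and NR1H3 (1.15) lie highest, ABCA1 (-0.93) lies lowest, and RXRA (0.04) is near 0.

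Levels of different genes were compared as counts per 1000000 effective library counts and per kilobase of canonical transcript. In shControl, LPCAT3 was highest at 22.5 ± 4.07 (SD, n = 3 throughout), followed by RXRB at 17.8 ± 4.10 and NR1H2 at 17.0 ± 5.41. RXRA followed at 6.55 ± 0.201. The remaining 6 genes lay close together, from MYLIP at 3.61 ± 0.571 through APOE, NR1H3, SMPDL3A and ABCA1 to ABCG1 at 1.66 ± 0.310. Only 2 of the 9 neighbouring pairs in this order were free of overlap between libraries, NR1H2 above RXRA and RXRA above MYLIP. In shSQLE the order ended with ABCA1 at 0.313 ± 0.0499 and ABCG1 at 0.0987 ± 0.0643, and 6 of the 9 neighbouring pairs did not overlap. The order depended on the length used. With coding length NR1H2 and RXRA overlapped in shControl, and RXRA above MYLIP and MYLIP above NR1H3 were the pairs free of overlap. In shSQLE 3 of the 9 pairs were then free of overlap. LPCAT3 and RXRB share 3096 and 361 exonic bases with EMG1 and SLC39A7, which averaged 1756 and 3412 normalised counts in shControl. How reads in shared bases were counted is not given, and their part in these levels was not tested. Overlap was judged on ranges without matching the libraries, although all genes were measured in the same ones. Genes that overlap can thus keep the same order in every library. Per canonical transcript, LPCAT3 (27.1, 21.1 and 19.3) was above RXRB (22.5, 14.8 and 16.0) in each shControl library. RXRB was below NR1H2 (23.2) in shControl replicate 1 and above it in the other two. Comparing 3 unmatched values with 3 cannot give an exact two-sided permutation p below 0.1.

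The ratio of these levels within a library gave the balance between paired genes. NR1H2 was 6.65 ± 1.10 times as high as NR1H3 in shControl and 7.47 ± 1.12 times in shSQLE (SD, n = 3 each). RXRA stood at 0.380 ± 0.0715 of the level of RXRB in shControl and at 0.393 ± 0.0314 in shSQLE. When coding length was used in place of transcript length, the ratio of RXRA to RXRB became 0.841 and 0.870. The level of ABCA1 was 1.49 ± 0.676 times that of ABCG1 in shControl and 4.30 ± 2.75 times in shSQLE, the latter resting on the 12 counts of ABCG1. The plot of levels per length shows both orders.

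**Figure D4:**
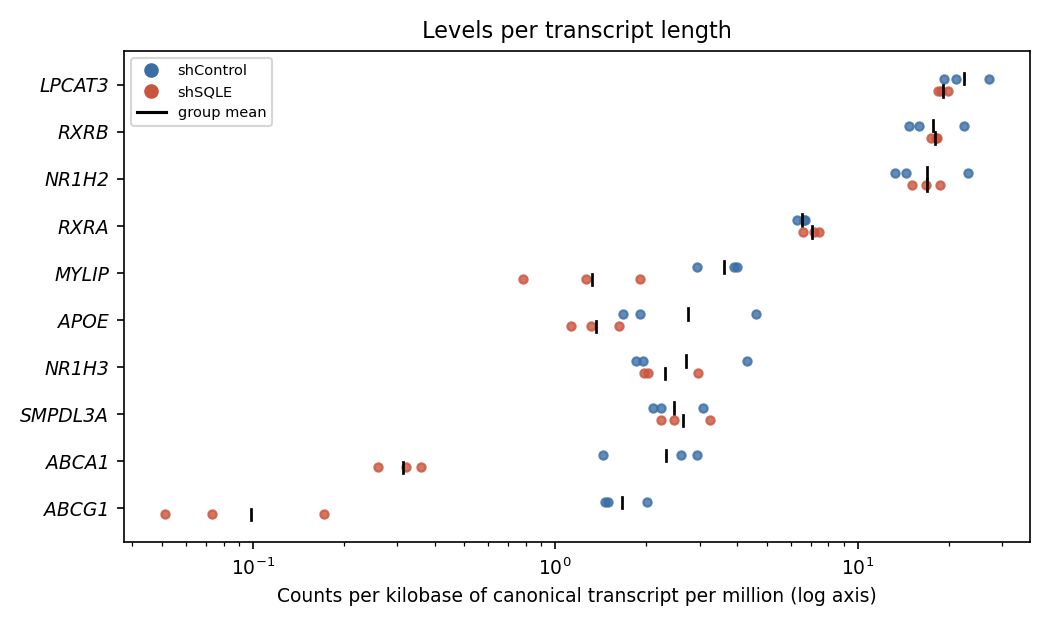
Level of each gene (counts per 1000000 per kilobase of canonical transcript, log axis), with points for the libraries and the mean of each group. LPCAT3 (22.5 in shControl), RXRB (17.8) and NR1H2 (17.0) are highest in shControl, and ABCA1 and ABCG1 are the lowest in shSQLE at 0.313 and 0.0987.

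Genes whose profile was most like that of ABCA1 were found by the root mean square difference between log2 normalised counts, each centred on its mean over the 6 libraries. Among 10029 genes the closest were SEMA3A (0.150), PTGS2 (0.163), FN1 (0.185), TNFRSF11B (0.188) and SQLE (0.201). SEMA3A encodes a secreted axon guidance factor, PTGS2 an inducible prostaglandin synthase, FN1 the matrix protein fibronectin, and TNFRSF11B the decoy receptor osteoprotegerin. FN1 had 6745, 9189 and 9074 normalised counts in shControl and 1132, 919 and 1350 in shSQLE. Log2 fold changes were -2.61 for SEMA3A, -2.99 for PTGS2, -2.88 for FN1, -3.19 for TNFRSF11B and -2.98 for SQLE, beside -2.89 for ABCA1. The measure takes in this difference between groups, so likeness does not show that genes vary together within a group. These profiles also share the 6 libraries and a lower value in shControl replicate 1. There ABCA1 was at 52.0% of the mean of the other two controls. SEMA3A was at 56.7%, TNFRSF11B at 58.4%, PTGS2 at 64.5%, SQLE at 71.2% and FN1 at 73.9%. Within the set MYLIP ranked 69 (0.751) in likeness to ABCA1. ABCG1 (0.770) and APOE (1.24) were not among the 10029 genes, which had a mean of at least 100 normalised counts in the higher group. Set beside those genes by their differences alone, ABCG1 would stand at 72 and APOE at 841.

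The rest of the pathway was described with 7 lists of 111 genes, of which 82 were tested. At an adjusted p under 0.05, 5 of the 82 were lower, beside 2.84% of all genes, and 0 were higher. Without shControl replicate 1, 27 of the 83 then tested were lower and 7 higher, beside 18.3% and 15.6% of all genes. An unadjusted p under 0.05, in either direction, was found for 14.7% of all genes with all libraries (1832 of 12450), and the counts of such p-values below stand beside that share. Among 15 coregulators of the receptors, which hold or release repression, none passed the test in edgeR and 3 had an unadjusted p under 0.05, while without shControl replicate 1 there were 4 lower and 2 higher. Their median log2 fold change was -0.01, with 8 below 0 and 7 above, and TBL1XR1, among the most abundant of them, stood at -0.02. NRIP1 was the lowest, at -1.19 (edgeR, adjusted p = 0.0817). Its groups did not overlap, and it was called lower in 3 of the 12 alternative fits. Of the other heterodimer partners of RXR, 10 of 15 were tested and none passed, with PPARG at 0.23 and PPARD at 0.31 and a median of 0.05. An unadjusted p under 0.05 was found for 3 of them, and without shControl replicate 1 there were 3 lower and 1 higher of 11 tested. The enzymes that make or remove sterol ligands were mostly too low to test, since 6 of 14 passed the filter. None of the 6 passed the test with or without shControl replicate 1, 1 had an unadjusted p under 0.05, and DHCR7, which acts late in cholesterol synthesis, stood at 0.03.

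Of 24 other LXR target genes 15 were tested, and 13 of these had a log2 fold change below 0. Their median was -0.49, beside -1.22 for the 6 targets of the set and -0.01 for all genes, of which 6420 were below 0. Of the 15, 4 passed the test and were lower, and 10 had an unadjusted p under 0.05. Without shControl replicate 1 there were 9 lower and 1 higher. SREBF1, the transcription factor of fatty acid synthesis, had 1565 ± 355.5 normalised counts in shControl and 852.5 ± 53.5 in shSQLE (SD, n = 3 each; log2 fold change -0.88 ± 0.17 (SE), edgeR quasi-likelihood test, adjusted p = 0.0332). NPC1, which exports cholesterol from lysosomes, fell by 0.64 ± 0.11 on the log2 scale (SE, edgeR, adjusted p = 0.0200). LIPG, endothelial lipase, fell by 0.72 ± 0.14 (SE, edgeR, adjusted p = 0.0332). TNFAIP3, an inhibitor of NF-κB signalling that NF-κB itself induces, fell by 1.43 ± 0.19 (SE, edgeR, adjusted p = 0.00711). Of the 6 fits without 1 library, the calls for SREBF1, NPC1 and LIPG were kept only in that without shControl replicate 1, and that for TNFAIP3 in 4. The most abundant members, SCD and FASN, which make monounsaturated and saturated fatty acids, stood at -0.43 (adjusted p = 0.0997 in edgeR) and -0.35 (adjusted p = 0.145 in edgeR). Exons of SREBF1 share 556 bases with RAI1, which had a log2 fold change of -0.05.

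Of the other efflux transporters, acceptors and their enzymes, 17 of 22 were tested and none passed, with a median of 0.02, while without shControl replicate 1 there were 3 lower and 1 higher. An unadjusted p under 0.05 was found for 4 of them, and CDC42 and CAV1, the most abundant, stood at 0.24 and 0.08 on the log2 scale. The 2 transporters of the set stood at -2.89 (ABCA1) and -4.01 (ABCG1), and the difference from the list was not tested. Of the lipoprotein receptors that MYLIP degrades and the partners of MYLIP, all 8 were tested and none passed, with a median of -0.07 and 2 at an unadjusted p under 0.05. Without shControl replicate 1 there were 4 lower and 1 higher. UBE2D3, an E2 enzyme, stood at 0.00. Of the relatives of LPCAT3 and SMPDL3A, 11 of 13 were tested, with a median of -0.23 and 4 at an unadjusted p under 0.05. Without shControl replicate 1 there were 4 lower and 1 higher. LPCAT1, an acyltransferase for saturated phosphatidylcholine, was the 1 gene past the test. It fell from 4105 ± 160.6 to 2526 ± 123.4 normalised counts (SD, n = 3 each; log2 fold change -0.70 ± 0.10 (SE), edgeR, adjusted p = 0.00933), and its call was kept in 2 of the 6 fits without 1 library. SMPD4, a neutral sphingomyelinase, stood at 0.12.

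Macrophage and leukocyte markers were included because these cells express ABCA1, ABCG1 and APOE at high levels. Of the 10 markers 1 passed the filter, their sum was 2.139 to 2.702 CPM in shControl and 0.464 to 1.78 in shSQLE, and PTPRC, CD163 and TYROBP were at 0 in every library. Of the hepatocyte markers 1 of 5 was tested, SERPINA1, with sums of 1.68 to 3.68 in shControl and 0.427 to 0.775 in shSQLE, and APOA2, TTR and FGB were at 0. SERPINA1, a protease inhibitor, had 49.7, 31.7 and 15.7 normalised counts in shControl and 3.92, 5.91 and 5.14 in shSQLE, and fell by 2.65 ± 0.51 on the log2 scale (SE, edgeR, adjusted p = 0.035), a call kept in 2 of the 6 fits without 1 library. Endothelial markers summed to 0.9826 to 1.298 in shControl and 0.155 to 0.569 in shSQLE, with 1 of 4 tested. Epithelial markers summed to 6.53 to 8.11 and 7.20 to 8.46, with 2 of 5 tested. Adipocyte markers summed to no more than 0.208, with 0 of 4 tested and ADIPOQ and LEP at 0. The part of these low levels in the values of the set was not tested.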

How the data were processed

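The deposited table held raw counts per gene and library, whole numbers that the authors made from 151 bp paired reads. The submitters' processing notes name fastp 0.20.0, STAR 2.7.9a, featureCounts 2.0 and hg38. The annotation release, strand setting and treatment of multi-mapping reads are not given in the sources used here, so reads of overlapping genes cannot be told apart.

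Of 19937 gene rows, 3942 were at 0 in all libraries, and 32 identifiers had no symbol in GENCODE v44, which also gave lengths and coordinates. Groups came from the labels. Genes passing filterByExpr (12450) were fitted with TMM normalisation and edgeR's quasi-likelihood test (edgeR 4.0.16, limma 3.58.1, R 4.3.3), with condition alone, and p-values were adjusted by Benjamini-Hochberg over all genes tested (threshold 0.05). The script was first tested on simulated data. DESeq2 1.42.0, other scaling, other filters, a replicate block and the omission of each library were alternatives. Fold changes of genes at 3 counts or fewer depend on the prior count. Intervals of pooled counts are exact and cover counting error only. Promoter windows were from RefSeq.

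The members and lists were chosen with earlier results of these data known. The genes named were the 10 members, SQLE, every list gene past the threshold, the 2 most abundant of each list, and the 5 most like ABCA1 with a mean of at least 100 normalised counts in the higher group. A few of the list genes named in this way were left out of the text. NRIP1 and the cell type markers with a value of their own were named after their values were seen.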

Additional observations from a re-analysis of the deposited data

How the results depend on the processing

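Of 119 fold changes of the 10 genes under 12 alternative fits, 117 moved by less than the spread between libraries and none of the called values changed sign. The others were APOE, at -0.40 without shControl replicate 1, and ABCG1, at -4.65 without shSQLE replicate 2. Among the genes not called, NR1H2, NR1H3, RXRB and SMPDL3A crossed 0 over the fits without 1 library. Their values ran from -0.14 to 0.29, -0.42 to 0.28, -0.09 to 0.22 and -0.06 to 0.29. Of the set 2 to 3 genes were called lower when each library was left out, and its median log2 fold change ran from -0.36 to -0.03. With at least 10 counts in every library 1 was called lower, ABCA1, since that filter left out ABCG1 and MYLIP missed the threshold. MYLIP also missed it with library size as the only scaling. Over all genes, 400 were called with all libraries. DESeq2 called 714 (556 lower, 158 higher) and 8 list genes (7 lower, 1 higher) against 5. An adjusted p under 0.01 gave 133 (124 lower, 9 higher), and one under 0.1 gave 637, of which 113 were higher. Leaving out each library gave 109 to 4264 calls (101 to 2300 lower, 4 to 1964 higher) and 0 to 34 list genes (0 to 27 lower, 0 to 7 higher). The upper ends came without shControl replicate 1, and omission of each of the other 5 libraries lowered the count. The replicate numbers were not shown to pair the samples, as the deviations of same-numbered libraries correlated at 0.138, -0.433 and 0.543. With the replicate block 396 genes were called (362 lower, 34 higher), with 3 of the set and 6 list genes. The added list gene was NRIP1, a coregulator, at a log2 fold change of -1.19 (edgeR, adjusted p = 0.0817) without the block. NRIP1 was also called lower by DESeq2 and without shControl replicate 1. At this depth ABCG1 in shSQLE was near the floor of 3 counts.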
